A study of Mus musculus with 4 samples.

Results

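Expression of 10 genes of conventional dendritic cells and of their maturation was followed in RNA from activated mouse CD8+ T cells: Flt3, Zbtb46, Itgax, Xcr1, Clec9a, Cd209a, Sirpa, Cd83, Cd86 and Fscn1. They were taken by symbol, each symbol standing once among the 49490 genes of the deposited table, and all 10 passed the filter on low values. The series compared CD8+ T cells of Irf8-/- mice with those of Irf8 fl/fl mice, which carry an Irf8 gene flanked by recombination sites, to find the genes regulated by IRF8. Cells came from spleens and lymph nodes and were activated in culture. Polyadenylated RNA was sequenced as 2 libraries labelled Irf8 knockout and 2 labelled WT. The sources used here give neither the way the gene was deleted, nor the activating agents, nor the age of the mice. Nothing in the labels ties a group's libraries to separate mice or cultures, so each p-value reflects the spread between sequenced libraries alone, and that spread may be technical.

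Conventional dendritic cells capture antigen, carry it to lymph nodes and present it to naive T cells. They arise from progenitors that depend on the FLT3 receptor, and they fall into type 1 cells, which present to CD8+ T cells and need IRF8, and type 2 cells, which mainly prime CD4+ T cells. On maturation they raise costimulatory molecules and rebuild their actin skeleton to migrate. Activated T cells can themselves express some of these genes, among them Itgax and Cd86.

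The targeted gene went against the labels. Irf8 (ENSMUSG00000041515.10) had normalized counts of 89508 and 90222 in the libraries labelled knockout, against 6364 and 6081 in the libraries labelled WT. Loss of an exon need not remove all reads of a gene, but the level was 14.4-fold higher where the label says the gene is absent. All 4 libraries are therefore named by their labels, and every direction is that of the label. A normalized count is the number of reads of a gene in a library divided by that library's size factor. The libraries held 58899365 to 59724952 reads, of which the 10 genes took 0.0957% and 0.0952% in the libraries labelled knockout and 0.0299% and 0.0283% in those labelled WT.

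Promoter sequences came from RefSeq for GRCm38.p6, the assembly also called mm10, as 250 bases before to 50 after a start site. They were found for 7 of the 10 genes, with no entry for Sirpa, Cd83 or Cd86. For 6 of the 7 the start lay within 12 bases of the gene's start in GENCODE M21. The window for Zbtb46 lies at an internal start, 35038 bases downstream of the start of the gene, and is not printed. The first pair below belongs to genes that rose and holds a composite site for an ETS factor and an IRF, the kind of site that IRF8 is known to bind together with PU.1. The second pair is Flt3, the gene with the highest fold of the 10, whose window holds an E-box, and Itgax, whose window holds an AP-1 site. Capitals mark the match and each line reads 5′ to 3′ on the strand of the gene.
Clec9a, plus strand, chr6:129408612-129408911: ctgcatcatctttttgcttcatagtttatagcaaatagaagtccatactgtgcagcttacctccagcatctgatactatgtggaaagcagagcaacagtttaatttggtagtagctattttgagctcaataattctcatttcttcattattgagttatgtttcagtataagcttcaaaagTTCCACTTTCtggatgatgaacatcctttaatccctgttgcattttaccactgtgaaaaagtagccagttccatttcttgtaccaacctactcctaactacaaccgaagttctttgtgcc
Cd209a, minus strand, chr8:3748935-3749234: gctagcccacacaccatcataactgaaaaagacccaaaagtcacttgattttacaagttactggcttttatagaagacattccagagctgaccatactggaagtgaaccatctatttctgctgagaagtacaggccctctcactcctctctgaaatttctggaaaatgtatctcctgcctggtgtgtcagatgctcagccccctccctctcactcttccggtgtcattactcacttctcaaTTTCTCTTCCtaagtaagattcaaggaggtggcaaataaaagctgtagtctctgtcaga
Flt3, minus strand, chr5:147400440-147400739: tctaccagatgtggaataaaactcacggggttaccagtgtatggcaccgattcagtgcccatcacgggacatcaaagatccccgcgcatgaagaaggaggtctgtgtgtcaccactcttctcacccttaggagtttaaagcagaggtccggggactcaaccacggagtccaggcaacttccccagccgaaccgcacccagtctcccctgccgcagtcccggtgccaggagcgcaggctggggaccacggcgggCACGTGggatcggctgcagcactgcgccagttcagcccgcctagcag
Itgax, plus strand, chr7:128129300-128129599: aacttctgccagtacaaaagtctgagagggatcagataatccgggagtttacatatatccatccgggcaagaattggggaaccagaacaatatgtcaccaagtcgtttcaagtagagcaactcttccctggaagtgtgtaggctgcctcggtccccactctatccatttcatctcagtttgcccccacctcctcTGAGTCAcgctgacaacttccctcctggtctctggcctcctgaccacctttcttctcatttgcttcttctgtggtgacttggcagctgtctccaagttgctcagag
Searches used 9 motifs on both strands, overlaps allowed. GAAANNGGAA was in Clec9a alone of the 7 and in 2.80% of the 32851 mouse windows of the same length. GGAANNGAAA was in Cd209a alone and in 2.72% of all promoters. TGANTCA, the AP-1 site, which reads alike on both strands, was in Itgax, in the internal window of Zbtb46, and in 7.81% of all. CACGTG, an E-box, also alike on both strands, was in Flt3 and Xcr1 and in 7.15% of all. The other 5 motifs had no match in these windows, and their shares of all promoters were 3.44% for GAAANNGAAA, 0.791% for GAAANTGAAA, 28.3% for GAGGAA, 1.47% for GGGANNTTCC and 4.59% for GGGANNNTCC. GAAANTGAAA is a special case of GAAANNGAAA. The matches in Clec9a and Cd209a read on the strand opposite to the gene. A match describes letters only.

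Of the 10 genes, 8 were higher in the libraries labelled knockout and 0 lower, at an adjusted p under 0.05 by limma over 18378 genes. Across all genes tested, 33.4% were called in either direction, 19.9% higher and 13.4% lower. Flt3, Clec9a, Sirpa, Cd209a, Fscn1, Cd83 and Zbtb46 rose 5.21-fold to 89.9-fold, and each of these 7 had a log2 fold change above 2. Over all genes tested, 6.58% were called with a log2 fold change above 2 and 0.174% with one below -2. Itgax rose 1.10-fold, a sign that turned with median centring, while Xcr1 and Cd86 did not pass. The median log2 fold change of the 10 genes was 3.32 and that of all genes tested 0.02. Values of the libraries labelled knockout lay wholly above those labelled WT for 8 of the genes, where 36.5% of all genes do so, and wholly below for Cd86, where 32.3% of all genes do so. With each library centred on its median, 24.9% of all calls were higher in place of 59.7%, and 7 of the 10 genes were called higher and 2 lower. By edgeR and by DESeq2 on the reads recovered from the table, 8 of the 10 were again higher. The genes called higher over the whole table numbered 3662, or 1358 without knockout-labelled replicate 1 and 1309 without knockout-labelled replicate 2, and 7 of the 10 were called in each of those fits. Where RNA comes from a mixed population, altered numbers of a cell type and altered RNA per cell cannot be told apart.

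**Figure D1:**
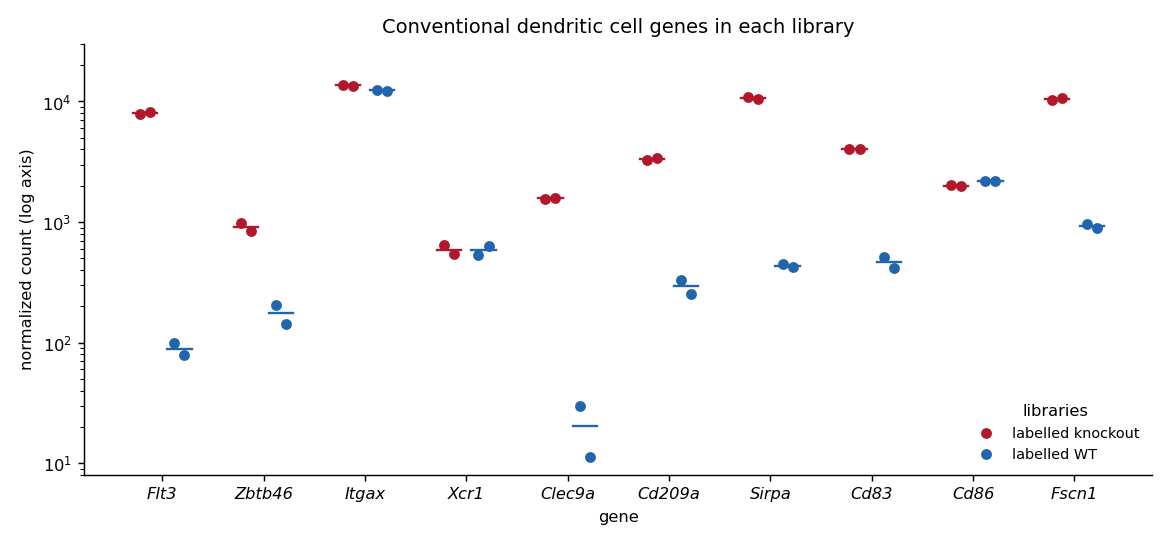
Normalized counts (log axis) of the 10 genes in each library, with the 2 libraries labelled knockout in red left of the 2 labelled WT in blue, and short lines at group means. Flt3 stands at 7887 and 8148 against 99.7 and 78.6, whereas the points of Xcr1 overlap.

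Flt3 is the receptor tyrosine kinase for the growth factor FLT3 ligand, on which dendritic cell progenitors depend. It (ENSMUSG00000042817.15, chromosome 5, 147330741 to 147400489, minus strand, GRCm38 coordinates as for every gene below) had normalized counts of 7887 and 8148 in the libraries labelled knockout, against 99.7 and 78.6 in those labelled WT. Both libraries of the first kind lay far above both of the second. The fold was 89.9, the log2 fold change 6.48 with a standard error of 0.13, and the limma adjusted p 6.48e-07. The antisense gene Gm26597 overlaps it, with 163 and 148 normalized counts in the libraries labelled knockout and 0 in both labelled WT. Since the use of strand in counting is not given, reads of this pair cannot be told apart.

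Zbtb46 encodes a zinc finger transcription factor that marks the conventional dendritic lineage and its committed precursors. It (ENSMUSG00000027583.13, chromosome 2, 181387762 to 181459426, minus strand) had 978 and 844 normalized counts in the libraries labelled knockout and 207 and 143 in those labelled WT. The groups did not overlap, although replicates differed by 14.7% of their mean in the first group and 36.4% in the second. The rise was 5.21-fold, the smallest of the 7 large ones, or 2.40 ± 0.20 on the log2 scale (SE, limma adjusted p = 2.59e-04).

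Itgax encodes CD11c, the integrin alpha chain used to recognise dendritic cells. It (ENSMUSG00000030789.9, chromosome 7, 128129547 to 128150657, plus strand) had 13736 and 13503 normalized counts in the libraries labelled knockout and 12573 and 12236 in those labelled WT. The groups did not overlap, but they lay close together. Its log2 fold change was 0.13, with a 95% interval of 0.05 to 0.22 and a limma adjusted p of 0.0300. The sign turned to -0.17 (limma adjusted p = 0.0169) when each library was centred on its median, a scaling under which the median over all genes was -0.28 in place of 0.02. The limma adjusted p was 0.204 without knockout-labelled replicate 1, 0.158 without knockout-labelled replicate 2 and 0.0556 without WT-labelled replicate 2. In the authors' deposited table Itgax has a log2 value of -0.135 for WT over knockout and an adjusted p of 0.0269, and that table calls 17.8% of the genes tested here higher in the knockout columns.

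Xcr1 and Clec9a are both surface receptors of type 1 dendritic cells, and their values are given side by side. Xcr1, the receptor for the chemokine XCL1 that CD8+ T cells secrete (ENSMUSG00000060509.4, chromosome 9, 123852315 to 123862029, minus strand), had 640 and 542 normalized counts in the libraries labelled knockout and 534 and 631 in those labelled WT. The groups overlapped. Its log2 fold change was 0.02, with a 95% interval of -0.31 to 0.35, which spans folds of 0.806 to 1.28 (limma adjusted p = 0.926). The sign turned with median centring (-0.28), without knockout-labelled replicate 1 (-0.10) and without WT-labelled replicate 1 (-0.10), and none of these passed.

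Clec9a encodes DNGR-1, a C-type lectin that binds actin filaments exposed by dead cells. It (ENSMUSG00000046080.17, chromosome 6, 129408862 to 129424763, plus strand) had 1547 and 1589 normalized counts in the libraries labelled knockout, against 29.5 and 11.2 in those labelled WT. Those last values rest on 29 and 11 reads, so the 77.0-fold rise is imprecise, and the 95% interval of the fold by limma ran from 40.9 to 161. The log2 fold change was 6.34 with a standard error of 0.41 and a limma adjusted p of 8.37e-05. It was 7.003 without WT-labelled replicate 1 and 5.68 without WT-labelled replicate 2. Clec1b and the intronic transcript Gm43914 lie across the same locus on the same strand, each with 0 in both libraries labelled WT and at most 78.4 in a library labelled knockout. Per kilobase of exon, the ratio of Clec9a to Xcr1 was 3.27 and 3.96 in the libraries labelled knockout and 0.0747 and 0.0241 in those labelled WT.

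Cd209a and Sirpa are genes of type 2 and monocyte-derived dendritic cells, and both rose. Cd209a, a C-type lectin related to human DC-SIGN (ENSMUSG00000031494.7, chromosome 8, 3743397 to 3748984, minus strand), had 3292 and 3388 normalized counts in the libraries labelled knockout and 332 and 254 in those labelled WT. It rose 11.4-fold, by 3.52 on the log2 scale with a standard error of 0.13 (limma adjusted p = 9.58e-06). Reads of near-identical family members can be split by the aligner, and the family was therefore read as well, by a list written after the values had been seen. Of its 6 other members, Cd209c, Cd209d and Cd209e also rose, by 2.61, 6.18 and 7.06 on the log2 scale. Cd209d had 3174 and 3151 normalized counts in the libraries labelled knockout and 46.8 and 38.8 in those labelled WT. Cd209e had 5.09 and 0 in the libraries labelled WT. It therefore passed the filter only through the libraries labelled knockout, and the size of its rise hangs on 1 library. Cd209b was at 0 in all 4 libraries, and Cd209f and Cd209g did not pass the filter.

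Sirpa encodes the inhibitory receptor that binds CD47, the signal by which cells avoid being engulfed. It (ENSMUSG00000037902.18, chromosome 2, 129592835 to 129632228, plus strand) had 10943 and 10408 normalized counts in the libraries labelled knockout, against 446 and 421 in those labelled WT. Replicates differed by at most 5.78% of their mean and the groups were far apart. The rise was 24.6-fold, or 4.62 ± 0.07 on the log2 scale (SE, limma adjusted p = 2.06e-07). The related genes Sirpb1a, Sirpb1b and Sirpb1c had log2 fold changes of 0.46, 0.57 and 0.59 and did not pass (limma adjusted p = 0.393, 0.286 and 0.216).

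**Figure D2:**
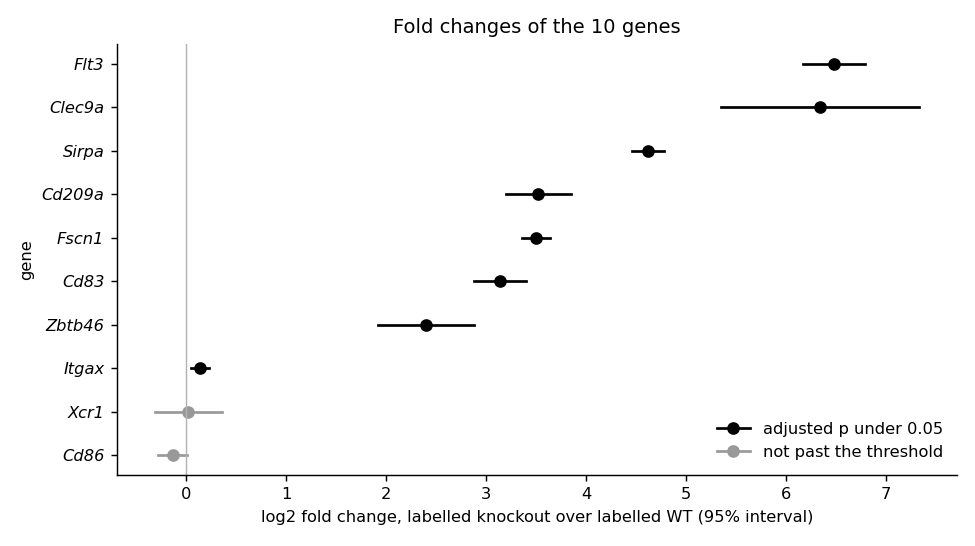
Log2 fold change of each gene, libraries labelled knockout over those labelled WT, with its 95% interval by limma; black points passed an adjusted p of 0.05 and grey ones did not. Flt3 and Clec9a lie above 6, while Itgax, Xcr1 and Cd86 lie within 0.14 of 0, and the sign of Itgax and of Xcr1 turns with median centring.

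Of the 3 maturation genes, Fscn1 and Cd83 rose and Cd86 did not pass. Fscn1 encodes fascin, which bundles actin filaments into the long processes of mature dendritic cells. It (ENSMUSG00000029581.14, chromosome 5, 142960343 to 142973185, plus strand) had 10351 and 10638 normalized counts in the libraries labelled knockout and 961 and 897 in those labelled WT. That is an 11.3-fold rise, or 3.50 ± 0.06 on the log2 scale (SE, limma adjusted p = 3.61e-07). Its paralogs Fscn2 and Fscn3 were near or at 0, with at most 6.81 in any library.

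Cd83 encodes a surface protein of mature dendritic cells that stabilises class II molecules and CD86 at the membrane. It (ENSMUSG00000015396.4, chromosome 13, 43784775 to 43803132, plus strand) had 4022 and 4070 normalized counts in the libraries labelled knockout, against 509 and 416 in those labelled WT. The rise was 8.75-fold, or 3.13 on the log2 scale with a standard error of 0.11 (limma adjusted p = 6.11e-06). Cd86 encodes the costimulatory ligand of CD28 and CTLA4. It (ENSMUSG00000022901.13, chromosome 16, 36603869 to 36666081, minus strand) had 2038 and 1977 normalized counts in the libraries labelled knockout and 2209 and 2200 in those labelled WT. The values of the libraries labelled knockout were both below those labelled WT. Its log2 fold change was -0.13, with a 95% interval of -0.28 to 0.01 and a limma adjusted p of 0.135. Median centring gave -0.44 and an adjusted p of 0.00145 by limma, so the call on Cd86 depends on the scaling. Per kilobase of exon, Cd83 stood at 2.81 and 2.93 times Cd86 in the libraries labelled knockout and at 0.328 and 0.269 times in those labelled WT.

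To compare levels between genes, normalized counts were divided by the length of all annotated exons in GENCODE M21. On this length scale Fscn1 was the most abundant of the 10 in both libraries labelled knockout, at a mean of 3484 normalized counts per kilobase. Itgax followed at 2836, and then came Sirpa (2174) and Cd209a (2110), whose order differed between the libraries. Below them lay Cd83 at 1573, Flt3 at 1298, Cd86 at 548, Clec9a at 476, Xcr1 at 133 and Zbtb46 at 107. In the libraries labelled WT Itgax alone made up 62.2% and 63.2% of the summed length-scaled level, against 19.4% and 19.1% in those labelled knockout. Cd86 came next in the libraries labelled WT at 602 per kilobase, then Fscn1 at 308, and then Cd209a (185) and Cd83 (180), whose order again differed between libraries. Xcr1 (131), Sirpa (88.2), Zbtb46 (20.5), Flt3 (14.4) and Clec9a (6.19) completed the order there. The summed length-scaled level was 14730 and 14748 in the libraries labelled knockout and 4208 and 4029 in those labelled WT.

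**Figure D3:**
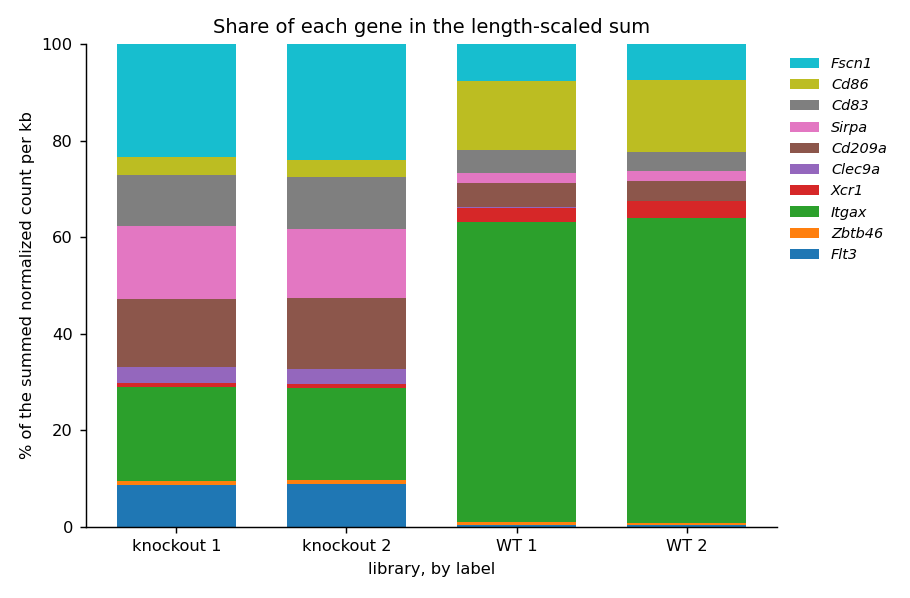
Share of each of the 10 genes (%) in their summed normalized count per kilobase, for the 2 libraries labelled knockout at left and the 2 labelled WT at right. Itgax fills 62.2% and 63.2% of the bars labelled WT and 19.4% and 19.1% of those labelled knockout, where Fscn1, Sirpa, Cd209a, Cd83 and Flt3 take larger shares.

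Further genes of conventional dendritic cells were read from lists of known marker genes. Those lists, like the later ones, were chosen with earlier results of these data known, so their shares are descriptive only. Of 14 tested genes of type 1 cells, 12 rose and 1 fell, with a median log2 fold change of 1.86, and 3 of the 14 passed the filter only through the libraries labelled knockout. Wdfy4, which cross-presentation by type 1 cells requires, had 1493 and 1611 normalized counts in the libraries labelled knockout and 81.4 and 69.4 in those labelled WT, a 20.6-fold rise. Naaa, a lysosomal amidase, rose 2.90-fold. Ly75, the endocytic receptor DEC-205, fell by 0.38 on the log2 scale. That call was lost without knockout-labelled replicate 1 (-0.46), without knockout-labelled replicate 2 (-0.30) and without WT-labelled replicate 2 (-0.27).

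Of 14 tested genes of type 2 cells, 8 rose and 2 fell, with a median of 1.96, and 1 passed the filter only through the libraries labelled knockout. Clec10a, a lectin for galactose-type sugars, had 5204 and 5431 normalized counts in the libraries labelled knockout and 120 and 143 in those labelled WT, a 40.4-fold rise. Cd7, an immunoglobulin-family receptor also found on T cells, rose 4.10-fold. Itgam, which encodes CD11b and marks type 2 cells and macrophages, fell by 0.94 on the log2 scale, and Cx3cr1, the fractalkine receptor, by 0.25. The call on Itgam was lost without knockout-labelled replicate 1 (-0.83), knockout-labelled replicate 2 (-1.06) or WT-labelled replicate 2 (-0.91), and that on Cx3cr1 without knockout-labelled replicate 1 (-0.29) or 2 (-0.22). Clec4a4 was at 0 in all 4 libraries.

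Of 14 tested genes that conventional dendritic cells share, 10 rose and 1 fell, with a median of 0.79. Bcl11a, a transcription factor of dendritic and B lymphoid development, had 12069 and 11660 normalized counts in the libraries labelled knockout and 31.5 and 29.6 in those labelled WT, a 388-fold rise. Kmo, an enzyme of tryptophan breakdown, rose 88.1-fold. Gpr132, a G protein-coupled receptor, fell by 0.24 on the log2 scale, and that call was lost without knockout-labelled replicate 1 (-0.21) or 2 (-0.27). With WT-labelled replicate 1 left out, 2 genes of this list were lower.

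Of 19 tested genes of maturation and migration, 13 rose and 3 fell, with a median of 0.92. Icosl, the ligand of the costimulatory receptor ICOS, had 3364 and 3477 normalized counts in the libraries labelled knockout and 478 and 475 in those labelled WT, a 7.18-fold rise. Ccl22, a chemokine that draws CCR4-bearing T cells, rose 8.22-fold. Pdcd1lg2, which encodes the inhibitory ligand PD-L2, fell by 0.73 and Traf1, a signalling adaptor of the TNF receptor family, by 0.28 on the log2 scale. Leaving out knockout-labelled replicate 1, or replicate 2, left 0 genes of this list lower. The shares called higher were 85.7% for type 1, 57.1% for type 2, 71.4% for shared and 68.4% for maturation genes. Of all genes tested, 19.9% were higher. In the same order, 7.14%, 14.3%, 7.14% and 15.8% were lower, against 13.4% of all genes tested. For genes that passed the filter only through the libraries labelled knockout, the filter itself favoured a higher call.

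Of 14 tested ligands, receptors and signalling partners of the 10 proteins, 3 rose and 8 fell, with a median log2 fold change of -0.15. The shares were 21.4% higher and 57.1% lower, against 19.9% and 13.4% of all genes tested. All 12 T cell markers, given below, fell too, with a median of -0.63. Both receptors of CD86 were lower, with Cd28 at 20132 and 19152 normalized counts in the libraries labelled knockout against 28502 and 28942 in those labelled WT, and Ctla4 lower by 0.69 on the log2 scale. Ligands made by T cells were lower as well, Xcl1, which binds XCR1, by 0.73 and Flt3l, which binds FLT3, by 0.40. Itgb2, the beta chain that pairs with CD11c, fell by 0.36 and Thbs1, a secreted ligand of CD47, by 0.65.

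Cd47, the ligand of SIRPA, rose 1.21-fold, but its log2 fold change turned to -0.03 with median centring. Ptpn6, the phosphatase SHP-1 that SIRPA recruits, rose 1.55-fold, while Ptpn11, which encodes SHP-2, did not pass (log2 fold change -0.13). Syk, the kinase that signals below CLEC9A, had 7610 and 7966 normalized counts in the libraries labelled knockout and 149 and 164 in those labelled WT, a 49.8-fold rise. The actin genes Actb and Actg1, whose filaments fascin bundles and CLEC9A binds, fell by 0.12 and 0.17 on the log2 scale. Icam1, a ligand of beta 2 integrins, and Stat3, which acts below FLT3, had log2 fold changes of -0.01 and 0.08 and did not pass. Without knockout-labelled replicate 1, and likewise without knockout-labelled replicate 2, 3 partner genes were lower instead of 8, and these were Itgb2, Cd28 and Ctla4.

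**Figure D4:**
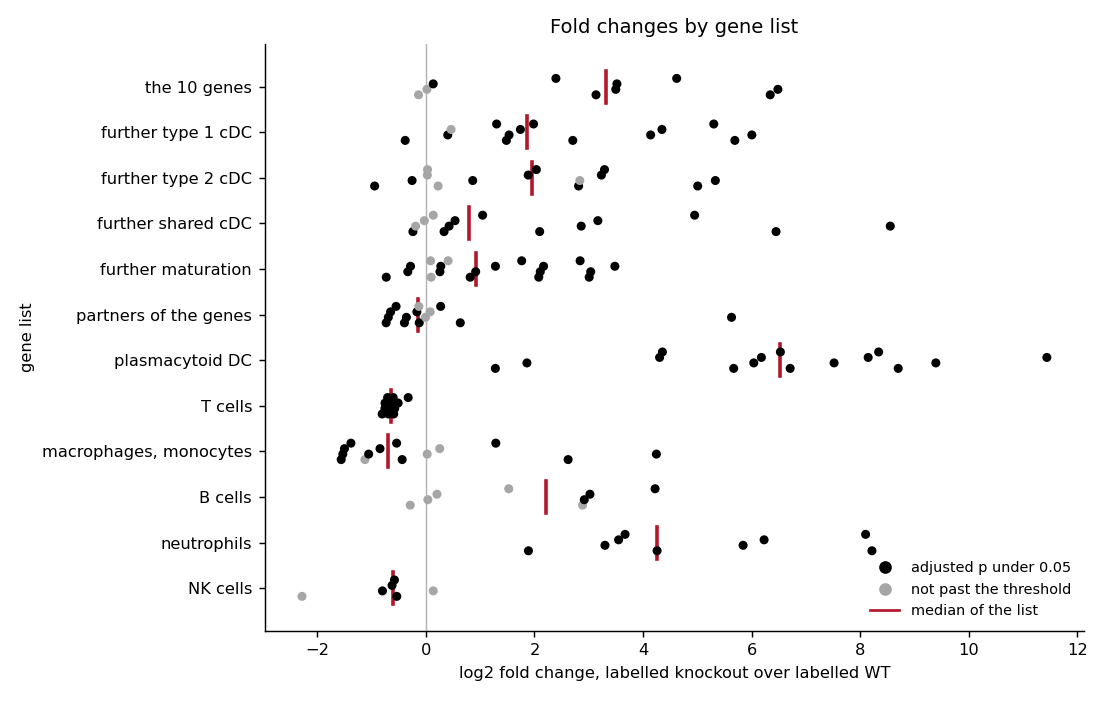
Log2 fold changes, libraries labelled knockout over those labelled WT, of every tested gene of each list (points, black where the adjusted p was under 0.05) with the list median (red line). The median is 3.32 for the 10 genes, 6.53 for plasmacytoid dendritic cell markers and -0.63 for T cell markers.

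Markers of other cells rose in some lists and fell in others. All 15 markers of plasmacytoid dendritic cells, the interferon-producing relatives of conventional dendritic cells, rose, with a median log2 fold change of 6.53, and 1 of them passed the filter only through the libraries labelled knockout. Their summed normalized counts were 315286 and 315273 in the libraries labelled knockout and 19056 and 18886 in those labelled WT. Cd209d, named above with the Cd209 family, is one of them. Siglech, a sialic acid receptor of these cells, rose 418-fold and Ccr9, a homing receptor, 51.0-fold. All 12 T cell markers fell, with a median of -0.63, and their sums were 388781 and 400772 in the libraries labelled knockout and 617684 and 609988 in those labelled WT. Cd3d and Cd3g, subunits of the CD3 complex, fell by 0.81 and 0.76. None of the markers of either list was at 0 in a group. The part of these cells in the changes of the 10 genes was not tested.

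Macrophage and monocyte markers were mixed, 3 of 14 tested being higher and 8 lower, with a median of -0.69. The shares were 21.4% higher and 57.1% lower, against 19.9% and 13.4% of all genes tested. The sums of these markers were 46762 and 45470.1 in the libraries labelled knockout and 48375 and 48932 in those labelled WT. Cd68 and Cd163, a lysosomal protein and a haemoglobin scavenger receptor, rose by 2.62 and 4.25 on the log2 scale, while C1qb, a complement subunit, fell by 1.53 and Ccr2, a chemokine receptor also found on T cells, by 0.44. The count of lower genes was 2 without knockout-labelled replicate 1 and 3 without knockout-labelled replicate 2. All 9 tested neutrophil markers rose, though 4 of them passed the filter only through the libraries labelled knockout, and their sums were 3268 and 3339 in the libraries labelled knockout and 213 and 258 in those labelled WT. Mpo, the granule enzyme myeloperoxidase, was without reads in either library labelled WT and was at least 89.4-fold higher against a floor of 3 reads per library, and S100a9, a calcium-binding protein, rose 13.2-fold. With either library labelled knockout left out, 5 neutrophil markers were higher.

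Of 8 tested B cell markers, 3 rose and 0 fell, and 2 of the 8 passed the filter only through the libraries labelled knockout. The share called higher was 37.5%, against 19.9% of all genes tested. Cd79b, a signalling chain of the B cell receptor, rose 8.17-fold. Bank1, a B cell scaffold protein, rose 7.11-fold, and its call was lost without knockout-labelled replicate 1 (3.11) or 2 (2.73). The count of higher B cell markers was 1 in both of those fits and 5 without WT-labelled replicate 2. The B cell sums were 1450 and 1484 in the libraries labelled knockout and 341 and 298 in those labelled WT. NK cell marker sums were 30782 and 32027 in the libraries labelled knockout and 45885 and 47984 in those labelled WT. Of 6 tested NK cell markers, 0 rose and 4 fell, a lower share of 66.7% against 13.4% of all genes tested. Eomes, a transcription factor also of CD8+ T cells, was lower by 0.54 and Klre1, a lectin-like receptor, by 0.62. The part of macrophages, neutrophils, B cells and NK cells in the changes of the 10 genes was not tested.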

How the data were processed

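Gene expression was measured in 4 libraries of polyadenylated RNA, grouped and numbered by the sample titles. The submitters' processing notes name mm10, HISAT2 2.2.1, Trim Galore 0.4.4, DESeq2 and StringTie 2.1.4. Settings, gene annotation and strand use: not given in the sources used here. Per the file headers, the authors deposited a signal, the normalized count, in 1 column per library beside their DESeq2 columns: a mean, log2 fold changes with standard errors (WT over knockout), a Wald score, and p-values with adjusted p-values.

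The values were whole multiples of 1 step per library, within 0.01 reads for 100% of values, so reads were recovered. Symbols that a spreadsheet had stored as dates (24 in number) are not named. The main test was limma 3.58.1 (R 4.3.3, eBayes, robust and with a mean trend) on log2(normalized count + 1), for 18378 genes with at least 10 in at least 2 libraries. The added 1 lowers the fold changes of low genes on this scale. Each fold printed is the ratio of the group means, and it can lie above or below the limma fold change, which compares means of logs. Intervals of a fold are those of limma. Two-sided p-values were adjusted over all these genes by Benjamini-Hochberg and called under 0.05. An exact permutation test of 2 against 2 libraries cannot give a p below 0.333. The 95% intervals are those of limma and reflect the spread between libraries, whereas floors on single reads cover counting error only. Replicate libraries differed beyond sampling noise, and more so in WT (chi-square per degree of freedom 6.45 for knockout and 21.7 for WT). These values do not tell technical repeats from separate mice or cultures. The tests were also tried on simulated counts with known changes. The simulated spread was equal in both groups, unlike that of these libraries, and no result here rests on that trial. Alternatives included edgeR 4.0.16 (TMM factors) and DESeq2 1.42.0 on the recovered reads, other pseudocounts, filters and scaling, a replicate block, and leaving out each library. GENCODE M21 (GRCm38) gave coordinates and exon lengths and held each of the 10 symbols once.

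The members and the lists were chosen with earlier results of these data known. Genes named were the 10, Irf8, all partner genes, and from each other list the 2 increases and 2 decreases past the threshold with the lowest adjusted p, where it had them; the paralog list and overlapping genes were added after the values were seen. Symbols were matched for 14 of 15 genes of the type 1, shared and partner lists.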

Additional observations from a re-analysis of the deposited data

How the results depend on the processing

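The calls on Flt3, Clec9a, Zbtb46, Cd209a, Sirpa, Cd83 and Fscn1 kept their direction and side of the threshold under all 13 alternatives, with log2 fold changes from 2.095 (Zbtb46) to 7.003 (Clec9a). Between 7 and 8 of the 10 genes were called higher throughout. With each library centred on its median, 2389 genes were higher and 7210 lower over the whole table, and 2 of the 10, Itgax and Cd86, were lower. That scaling turned the higher share of all calls from 59.7% to 24.9%. It reversed Itgax to -0.1655 and Xcr1 to -0.2799. Xcr1 ranged from -0.0994 (without WT-labelled replicate 1) to 0.1403 (without WT-labelled replicate 2) as single libraries were left out, and was -0.0988 without knockout-labelled replicate 1. Leaving out each library gave 1309 to 4137 genes higher and 630 to 2759 lower, 7 to 8 of the 10 higher and 0 lower. The fits that leave 1 library in a group assume that it varies like the other group. The labels give same-numbered libraries nothing in common but the number. The correlation of their deviations was 0.0172, a value that cannot show whether they were prepared together. With a replicate block the counts were 3415 higher and 2168 lower, 7 of the 10 were higher, and Itgax kept 0.13 with a limma adjusted p of 0.0646. Of 130 refits of single genes, 121 kept direction and call, and of 286 list counts 262 stayed within 1.5 times. The causes were not tested. Depth limits Clec9a most, at 29 and 11 reads in the libraries labelled WT.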
